A study of Homo sapiens with 4 samples.

Results

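The mitochondrial genome transcripts are the 37 genes whose identifiers begin with MT- in a deposited table of 60662 genes. They comprise 13 mRNAs, 2 ribosomal RNAs and 22 transfer RNAs, and they are the same 37 genes that GENCODE 44 annotates on the mitochondrial chromosome of hg38. HAP1, the line studied, is human, nearly haploid and descends from KBM-7, a line of chronic myeloid leukaemia. There were 2 MATR3 knockout (KO) libraries, 1 each from the purchased clones 1 and 5, and 2 wild-type (WT) libraries from clone 4 of the parental line, with 1 growth medium given for all. Total RNA was converted to PCR-amplified cDNA and sequenced as long reads on a MinION of Oxford Nanopore. The product of MATR3 is matrin 3, an RNA- and DNA-binding protein of the nuclear matrix, and the comparison asked how its loss altered gene expression.

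Each KO clone is a single purchased clone with 1 library, and no separate cultures are named for the WT libraries, so what p-values capture is the spread among libraries, part or all of which can be technical. The WT libraries carry no replicate number in the table and are called A and B. Their column names show an earlier date than those of the KO libraries and also read FACS for A and test for B, words that are not explained, so genotype cannot be told apart from date or handling. The depth was 3121759 counts for KO clone 1 and 4024026 for clone 5, against 3509906 in WT A and 5303199 in WT B. MATR3 itself is listed under a pair of overlapping gene models, and the main one had 187 and 204 counts in KO clones 1 and 5 and 171 and 304 in WT A and B, so its level gives no check on the knockout. Of 10 haematopoietic markers 8 had 0 counts in all 4 libraries, CD45 (PTPRC), CD34 and GATA1 among them, and none of the 10 exceeded 4 counts in a library. BCR, a partner of the leukaemic fusion of the parental line, had 10 and 8 counts in KO clones 1 and 5 and 9 and 15 in WT A and B. ABL1, the other partner, had 2 and 1 counts in KO clones 1 and 5 and 3 and 1 in WT A and B. Among markers of other cell types COL1A1 alone reached 10 counts in a library.

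Human mitochondrial DNA is a small circle that is transcribed from both strands into long precursors. Most mRNAs and rRNAs are flanked by tRNAs, and excision of the tRNAs releases the transcripts between them. The mRNAs encode subunits of respiratory chain complexes I, III and IV and of the ATP synthase, and the rRNAs build the mitochondrial ribosome. Mature mRNAs and rRNAs other than MT-ND6 receive short poly(A) tails. All the proteins that transcribe, cut, modify and degrade these RNAs are encoded in the nucleus.

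In the hg38 reference the mitochondrial chromosome is 16569 bases long. The plus strand carries 28 of the 37 genes, including both rRNAs, 12 mRNAs and 14 tRNAs. The minus strand carries 9, which are MT-ND6 and 8 tRNAs. Of 36 neighbouring pairs 5 overlap, by 1 to 46 bases, and most of the others abut with no gap. In 6 of the 13 mRNAs the gene model's length is not a multiple of 3, as background because the poly(A) tail completes the stop codon there. A long read can therefore cover several genes, and the sources used here do not say how such reads were assigned.

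The genes whose counts turn on this layout are given as reference sequence, 5′ to 3′ on the plus strand of hg38. In the tRNA cluster between MT-ND4 and MT-ND5 (chrM:12138-12336) MT-TH, the tRNA for histidine, and MT-TL2, a tRNA for leucine, stand in lower case on either side of MT-TS2, a tRNA for serine, in capitals. MT-TS2 was the tRNA with the most counts, while both of its neighbours had 0 in every library.
MT-TH, MT-TS2 and MT-TL2: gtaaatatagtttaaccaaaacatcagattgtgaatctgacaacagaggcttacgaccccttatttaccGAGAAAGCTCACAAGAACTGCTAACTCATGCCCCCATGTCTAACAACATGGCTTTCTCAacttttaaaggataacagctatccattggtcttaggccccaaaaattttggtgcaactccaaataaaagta
Downstream of MT-CYB (chrM:15888-16023) MT-TT, the tRNA for threonine, is in lower case and MT-TP, the tRNA for proline, in capitals. MT-TP lies on the minus strand, so its own sequence is the reverse complement of the capitals.
MT-TT and MT-TP: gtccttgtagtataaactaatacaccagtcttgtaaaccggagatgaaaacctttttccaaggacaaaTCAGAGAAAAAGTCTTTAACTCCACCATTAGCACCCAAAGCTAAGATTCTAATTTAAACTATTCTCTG
At the junction of MT-ND5 and MT-ND6 (chrM:14119-14178) the last 30 bases of MT-ND5 are in lower case and the adjoining 30 bases of MT-ND6, which is read from the other strand, are in capitals. No base separates the 2 genes, so a plus-strand transcript running past MT-ND5 is antisense to MT-ND6.
MT-ND5 and MT-ND6: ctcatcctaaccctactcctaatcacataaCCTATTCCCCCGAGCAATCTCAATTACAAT
Around the overlap of MT-ATP8 and MT-ATP6 (chrM:8507-8592) capitals mark the 46 bases that belong to both genes.
MT-ATP8 and MT-ATP6: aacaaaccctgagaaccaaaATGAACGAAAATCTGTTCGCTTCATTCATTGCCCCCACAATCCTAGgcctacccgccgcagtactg
Around the overlap of MT-ND4L and MT-ND4 (chrM:10740-10786) capitals mark the 7 bases that belong to both.
MT-ND4L and MT-ND4: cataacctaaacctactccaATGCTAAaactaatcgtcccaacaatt

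The mitochondrial genome took a similar share of the reads in both groups. It held 83572 and 85594 counts in KO clones 1 and 5, against 68316 in WT A and 114973 in WT B. As a share of all counts this was 2.68% in KO clone 1 (exact 95% binomial interval 2.66 to 2.70) and 2.13% in KO clone 5 (2.11 to 2.14), against 1.95% in WT A (1.93 to 1.96) and 2.17% in WT B (2.16 to 2.18). KO clone 5 lay between the WT libraries, so the groups overlapped. The mean was 2.40% ± 0.389 in KO and 2.06% ± 0.157 in WT (SD, n = 2 each), with a two-sided exact permutation p of 0.667, where 2 libraries against 2 cannot give less than 0.33. The intervals reflect counting alone, because copies made by PCR repeat the same molecule. These are bulk libraries, in which fewer cells of a kind and less RNA per cell cannot be told apart.

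Divided by class, the mRNAs made up 1.13% and 1.01% of all counts in KO clones 1 and 5, against 0.929% and 1.07% in WT A and B, and the groups overlapped. The rRNAs made up 1.53% and 1.10% in the KO clones, against 1.01% and 1.09% in WT. KO clone 1 stood apart from the other 3 libraries in rRNA, and KO clone 5 exceeded WT B only in the last digit. The tRNAs made up 0.0185% and 0.0127% in the KO clones, against 0.00584% and 0.00669% in WT, so both KO clones lay above both WT libraries (exact permutation p = 0.33, the smallest possible).

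Of the 19 members with enough counts for a test, 2 rose in the KO clones and 0 fell. MT-TS2 and MT-ND6 were these 2, at an adjusted p under 0.05 in edgeR's quasi-likelihood test fitted over 10505 genes. Of all genes tested, 2.19% passed, 1.58% higher and 0.609% lower. At an unadjusted p under 0.05, 9 members were higher and 1 was lower, against 10.7% and 5.66% of all genes. The median log2 change of the 19 was 0.42, against 0.0021 over all genes tested, and 17 of 19 lay above 0, against 50.3% of all genes. In 11 of the 19 both KO libraries lay above both WT libraries and in 1 both lay below, against 25% and 22.8% of all genes. Of the 37 members 18 were not tested, all of them tRNAs with at most 7 counts in any library. Each tested member reached at least 32 counts in a WT library, and only MT-TF was under 10 counts in any library, with 5 in WT A.

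**Figure D1:**
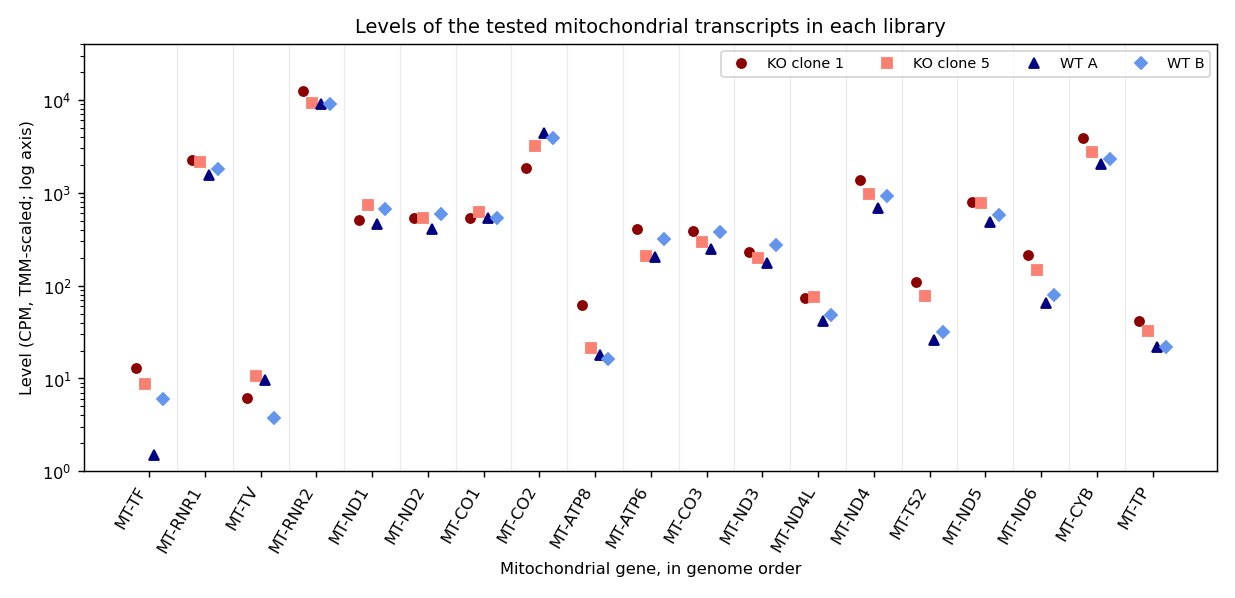
Level of each tested mitochondrial transcript in KO clones 1 and 5 and WT libraries A and B, in CPM (TMM-scaled), on a log axis and in genome order. In MT-TS2 and MT-ND6 both KO points lie above both WT points, and in MT-CO2 both lie below.

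Of the tested members, the counts of MT-TS2, the tRNA that reads AGY serine codons, rose the most. Reads of the tRNA itself and of longer RNA that crosses its gene cannot be told apart in these counts. MT-TS2 had 359 and 298 counts in KO clones 1 and 5, against 87 in WT A and 169 in WT B. In CPM, the count scaled to library size with TMM factors, this was 110 and 77.1 in KO clones 1 and 5, against 25.9 and 31.5 in WT. Both KO clones exceeded both WT libraries, with clone 1 the higher of them. The means were 93.7 ± 23.4 CPM in KO and 28.7 ± 3.98 CPM in WT (SD, n = 2 each), a log2 change of 1.70 (SE 0.31, edgeR adjusted p = 0.0134). The authors' deposited table gives 1.69 for MT-TS2, with an adjusted p of 8.22e-05. The call ended without any scaling factor (edgeR adjusted p = 0.0637) and without WT A (0.0856), at log2 fold changes of 1.73 and 1.57.

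Relative to its neighbours, MT-TS2 was shifted as well. Its counts were 0.0812 and 0.0801 of those of MT-ND4, the complex I subunit gene upstream of it, in KO clones 1 and 5, against 0.0376 and 0.0345 in WT A and B. Against MT-ND5, the complex I subunit gene downstream, the ratio was 0.140 and 0.100 in KO clones 1 and 5, and 0.0539 and 0.0549 in WT A and B. Neither ratio depends on library scaling, and the groups did not overlap in either. MT-TH and MT-TL2, the tRNAs that abut MT-TS2 in the sequence shown, had 0 counts in all 4 libraries. A count of 0 allows up to 3 counts, or 0.921 and 0.776 CPM in KO clones 1 and 5 and 0.892 and 0.559 CPM in WT A and B.

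MT-ND6, the complex I subunit encoded on the minus strand, also rose. It had 701 and 564 counts in KO clones 1 and 5, against 219 and 428 in WT A and B, or 215 and 146 CPM in the KO clones, against 65.2 and 79.8 CPM in WT. Again both KO clones exceeded both WT libraries. The means were 181 ± 49.0 CPM in KO and 72.5 ± 10.4 CPM in WT (SD, n = 2 each), a log2 change of 1.31 (SE 0.29, edgeR adjusted p = 0.0322). The authors' deposited table gives 1.31 for MT-ND6, with an adjusted p of 0.00180. Without any scaling factor the edgeR adjusted p was 0.0986, without WT A 0.295 and without WT B 0.119, while the log2 fold change stayed between 1.01 and 1.56 over all alternatives.

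The sources used here do not state whether strand was used in counting, so reads of MT-ND6 and of plus-strand RNA antisense to it cannot be told apart. The counts of MT-ND6 were 0.273 and 0.190 of those of MT-ND5 in KO clones 1 and 5, against 0.136 and 0.139 in WT A and B. The WT libraries differed little in this ratio and both KO clones lay above them. The 9 minus-strand genes together held 1.01% and 0.810% of mitochondrial counts in KO clones 1 and 5, against 0.430% and 0.474% in WT A and B. MT-ND6 and MT-TP made up nearly all of these counts.

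**Figure D2:**
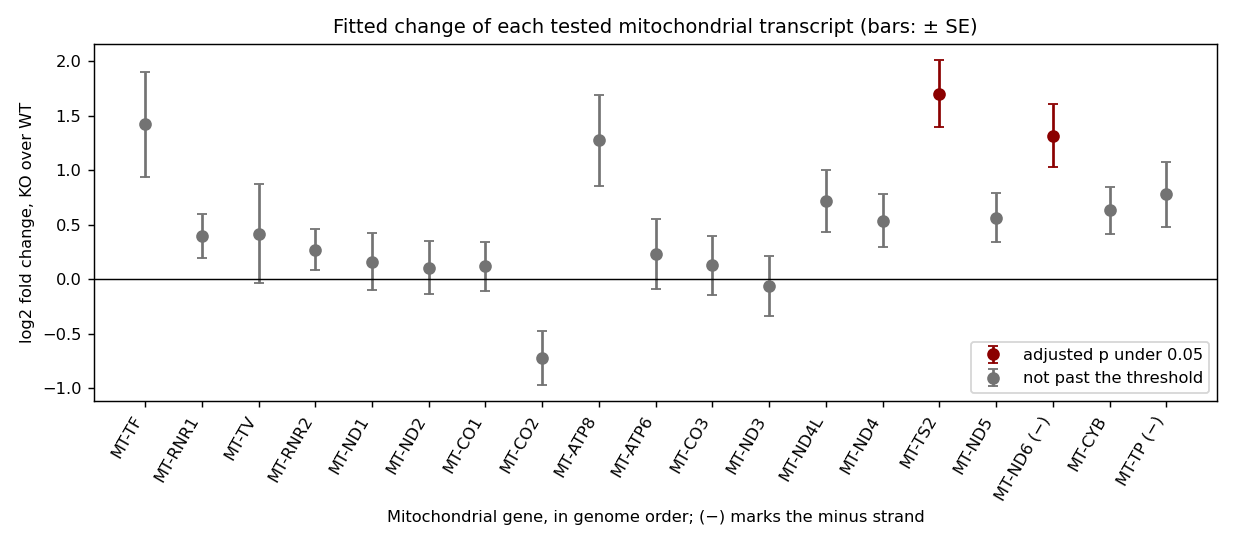
Fitted log2 change of KO over WT for each tested mitochondrial transcript, in genome order, with bars of ± 1 SE from the edgeR fit. MT-TS2 (1.70) and MT-ND6 (1.31), in red, passed an adjusted p of 0.05, and MT-CO2 has the lowest value (-0.72).

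Along the genome the tested members could be divided into 2 stretches by their values. In genome order, the 7 tested members from MT-ND4L to MT-TP had log2 fold changes of 0.54 to 1.70, and in all 7 both KO clones lay above both WT libraries. The 12 tested members from MT-TF to MT-ND3 had values of -0.72 to 1.42 with a median of 0.19. Of these 12, 4 had both KO clones above both WT libraries, as did 25% of all genes tested. This division was chosen after the values were seen and was not tested. With each library left out in turn, the median of the later stretch was 0.59 to 0.85. All 7 of its members stayed above 0, which their lack of overlap between the groups all but fixed in advance.

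In this later stretch MT-ND5 had 2568 and 2974 counts in KO clones 1 and 5, against 1613 and 3077 in WT A and B, or 788 and 770 CPM in the KO clones, against 480 and 574 CPM in WT. The KO clones were close together and above both WT libraries, with a log2 change of 0.56 (SE 0.22, edgeR adjusted p = 0.224). MT-ND4 had 1358 and 962 CPM in KO clones 1 and 5, against 688 and 912 CPM in WT A and B, and a log2 change of 0.54 (SE 0.24, edgeR adjusted p = 0.289). KO clone 5 exceeded WT B there by a small margin. MT-ND4L, which shares the 7 capital bases with MT-ND4, had 73.4 and 75.0 CPM in the KO clones, against 41.4 and 48.7 CPM in WT, a log2 change of 0.72 (SE 0.28, edgeR adjusted p = 0.221). Without KO clone 5, which leaves a single KO library, the log2 fold change of MT-ND4 was 0.76.

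The other complex I mRNAs lay in the earlier stretch and overlapped between the groups. MT-ND1 had 1668 and 2868 counts in KO clones 1 and 5, against 1534 and 3572 in WT A and B, with a log2 change of 0.16 (SE 0.26). MT-ND2 had a log2 change of 0.10 (SE 0.24) and MT-ND3 of -0.06 (SE 0.27), and the edgeR adjusted p of the 3 genes ran from 0.808 to 0.941. The sign of each of the 3 changed when certain single libraries were left out. In MT-ND1, MT-ND2 and MT-ND3 the WT libraries differed from each other by 0.54 to 0.62 on the log2 scale, with WT A the lower.

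MT-CYB, the complex III subunit cytochrome b, was the mRNA with the second highest mean level per length in each group. It had 12769 and 10695 counts in KO clones 1 and 5, against 6781 and 12353 in WT A and B. In CPM this was 3920 and 2767 in the KO clones, against 2017 and 2303 in WT, and both KO clones lay above both WT libraries. The log2 fold change was 0.63 (SE 0.22, edgeR adjusted p = 0.163). Without KO clone 5 the value was 0.85, and without KO clone 1 it was 0.36.

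MT-CO2, a core subunit of complex IV, was the only tested member in which both KO clones lay below both WT libraries. It had 5994 and 12274 counts in KO clones 1 and 5, against 14720 and 20925 in WT A and B, or 1840 and 3176 CPM in the KO clones, against 4379 and 3902 CPM in WT. KO clone 1 was far below the other 3 libraries and KO clone 5 lay nearer to WT. The means were 2508 ± 945 CPM in KO and 4140 ± 338 CPM in WT (SD, n = 2 each), a log2 change of -0.72 (SE 0.24, edgeR adjusted p = 0.152), which did not pass. Without KO clone 5 the log2 change was -1.17, and without KO clone 1 it was -0.38.

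The other complex IV mRNAs did not share this pattern. MT-CO1 had 531 and 626 CPM in KO clones 1 and 5, against 532 and 535 CPM in WT A and B, with a log2 change of 0.12 (SE 0.22, edgeR adjusted p = 0.838). MT-CO3 had a log2 change of 0.13 (SE 0.27, edgeR adjusted p = 0.862). The count of MT-CO2 was 3.47 and 5.07 times that of MT-CO1 in KO clones 1 and 5, against 8.24 and 7.29 times in WT A and B. The groups did not overlap in this ratio, which no library scaling affects.

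The ATP synthase mRNAs MT-ATP8 and MT-ATP6 overlap by the 46 capital bases, and reads of a joint transcript can be counted under either. MT-ATP8 had 200 and 82 counts in KO clones 1 and 5, against 60 and 87 in WT A and B, or 61.4 and 21.2 CPM in the KO clones, against 17.8 and 16.2 CPM in WT. KO clone 1 stood apart from the other 3 libraries, and the log2 change of 1.27 (SE 0.42, edgeR adjusted p = 0.146) was 0.32 without it. MT-ATP6 had 1317 and 803 counts in KO clones 1 and 5, against 678 and 1715 in WT A and B, and the groups overlapped (log2 fold change 0.23, SE 0.32, edgeR adjusted p = 0.770). The ratio of MT-ATP8 to MT-ATP6 was 0.152 and 0.102 in KO clones 1 and 5, against 0.0885 and 0.0507 in WT A and B.

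**Figure D3:**
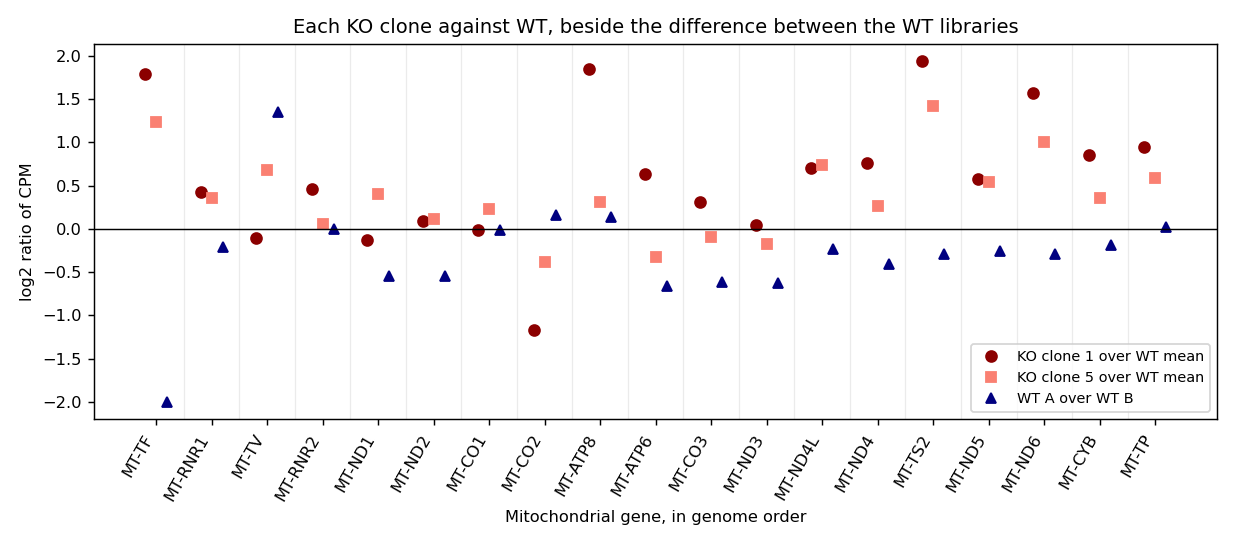
The log2 ratio of CPM of each KO clone to the WT mean, beside the log2 ratio of WT A to WT B, for each tested mitochondrial transcript in genome order. KO clone 1 is farther from 0 than KO clone 5 in MT-CO2 (-1.17 against -0.38) and MT-ATP8 (1.85 against 0.32), and MT-TF differs most between the WT libraries (-2.0).

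The make-up of the mitochondrial mRNA pool differed between the libraries. MT-CO2 held 17.0% and 30.2% of mitochondrial mRNA counts in KO clones 1 and 5, against 45.1% and 36.8% in WT A and B. MT-CYB held 36.1% and 26.3% in the KO clones, against 20.8% and 21.7% in WT. KO clone 1 was the only library in which MT-CYB had more counts than MT-CO2. By complex, the 7 complex I mRNAs held 34.2% and 32.6% of mRNA counts in KO clones 1 and 5, against 23.8% and 29.6% in WT A and B. The complex IV mRNAs held 25.4% and 38.9% in the KO clones, against 53.1% and 45.4% in WT. Both groupings separated the KO clones from the WT libraries (exact permutation p = 0.33 each, the smallest possible). Shares sum to 100%, so a lower share of MT-CO2 raises those of the others.

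**Figure D4:**
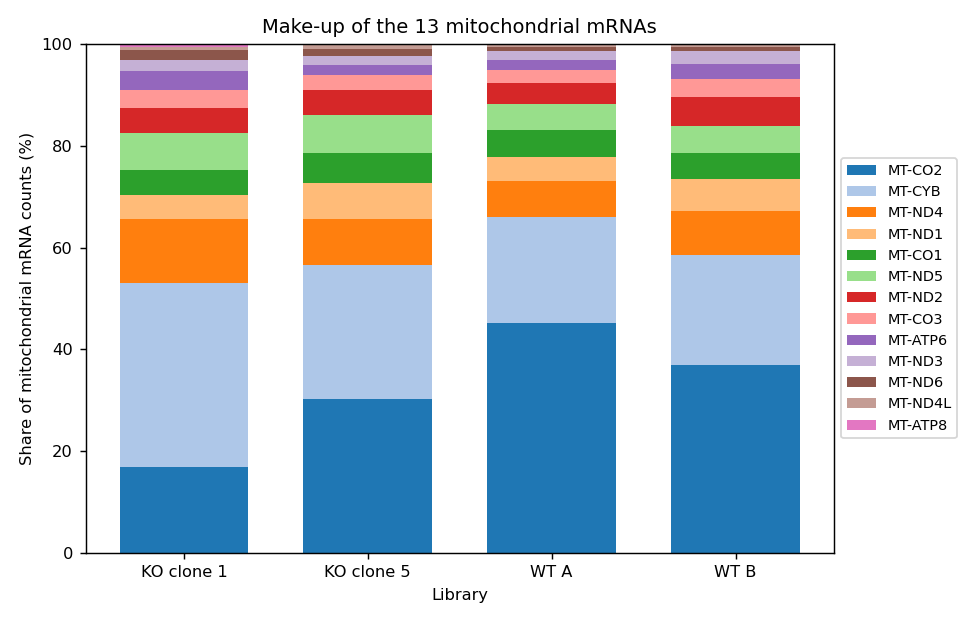
Share of the mitochondrial mRNA counts held by each of the 13 mRNAs in each library, stacked to 100%. The lowest segment, MT-CO2, takes 17.0% in KO clone 1 and 30.2% in KO clone 5, against 45.1% in WT A and 36.8% in WT B.

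Scaled to the summed mitochondrial mRNA counts of each library, 4 members passed the threshold. Calls rose over all genes as well, to 357 higher and 171 lower of 10505 tested, against 166 and 64 in the main test. MT-TS2 had a log2 change of 1.63 (edgeR adjusted p = 0.000404) and MT-ND6 of 1.24 (0.00737) on this scale. MT-TF, the tRNA for phenylalanine, had 1.36 (0.0288) and MT-ATP8 1.19 (0.0297). MT-CO2 had -0.80 with an edgeR adjusted p of 0.0631.

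The mRNA levels per length spanned a wide range in both groups. MT-CO2 was highest, at 3667 ± 1381 CPM per kilobase in KO and 6053 ± 494 in WT (SD, n = 2 each). MT-CYB was second, at 2930 ± 714 CPM per kilobase in KO and 1893 ± 177 in WT. MT-ND4, MT-ND1, MT-ND3 and MT-ND2 formed the next group, between 511 and 842 CPM per kilobase in KO and between 475 and 649 in WT, where neighbours in the order were within their SDs in WT. MT-ATP8 was lowest, at 200 ± 137 CPM per kilobase in KO and 82.3 ± 5.56 in WT. This order is that of the group means. In KO clone 1 MT-CYB (3436 CPM per kilobase) exceeded MT-CO2 (2690), and MT-ATP8 (297) exceeded MT-ND4L (247). MT-ND6 had 344 ± 93.3 CPM per kilobase in KO and 138 ± 19.7 in WT, and its place among the 13 mRNAs was 11 in KO and 12 in WT. A long read can span a whole transcript, so division by length may overstate the level of short genes here.

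The rRNAs were the most abundant class. MT-RNR2, the large-subunit rRNA, had 40248 and 36053 counts in KO clones 1 and 5, against 30230 and 48092 in WT A and B, or 12356 and 9329 CPM in the KO clones, against 8993 and 8967 CPM in WT. KO clone 1 stood apart and KO clone 5 was close to WT, with a log2 change of 0.27 (SE 0.19, edgeR adjusted p = 0.514). MT-RNR1, the small-subunit rRNA, had 2272 and 2166 CPM in KO clones 1 and 5, against 1565 and 1813 CPM in WT A and B, a log2 change of 0.39 (SE 0.20, edgeR adjusted p = 0.359). The ratio of MT-RNR2 to MT-RNR1 was 5.44 and 4.31 in KO clones 1 and 5, against 5.74 and 4.95 in WT A and B, and the groups overlapped. The mRNAs summed to 0.742 and 0.915 of the rRNA counts in KO clones 1 and 5, against 0.919 and 0.983 in WT A and B.

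The tRNAs were counted unevenly. Of 22 tRNAs 13 had a count in some library and 9 had 0 in all 4. The 4 that were tested, MT-TS2, MT-TP, MT-TF and MT-TV, held 96.5% of the 1650 tRNA counts. All other tRNAs had at most 20 counts over the 4 libraries. MT-TP had 137 and 127 counts in KO clones 1 and 5, against 74 and 116 in WT A and B, or 42.1 and 32.9 CPM in the KO clones, against 22.0 and 21.6 CPM in WT, a log2 change of 0.78 (SE 0.30, edgeR adjusted p = 0.207). Its neighbour MT-TT in the sequence shown had 1 count, in KO clone 1, and 0 elsewhere. The ratio of MT-TP to MT-CYB, 0.0107 and 0.0119 in KO clones 1 and 5 and 0.0109 and 0.00939 in WT A and B, overlapped between the groups.

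MT-TF, which precedes MT-RNR1, had 42 and 34 counts in KO clones 1 and 5, against 5 and 32 in WT A and B. WT A alone was low, and the log2 change was 1.42 (SE 0.48, edgeR adjusted p = 0.152). Without WT A it was 0.85 (edgeR adjusted p = 0.651), and without WT B it was 2.80 (0.00421). MT-TV, the tRNA for valine between the rRNAs, had 20 and 41 counts in KO clones 1 and 5, against 32 and 20 in WT A and B, a log2 change of 0.42 (SE 0.46, edgeR adjusted p = 0.694), and the groups overlapped.

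**Figure D5:**
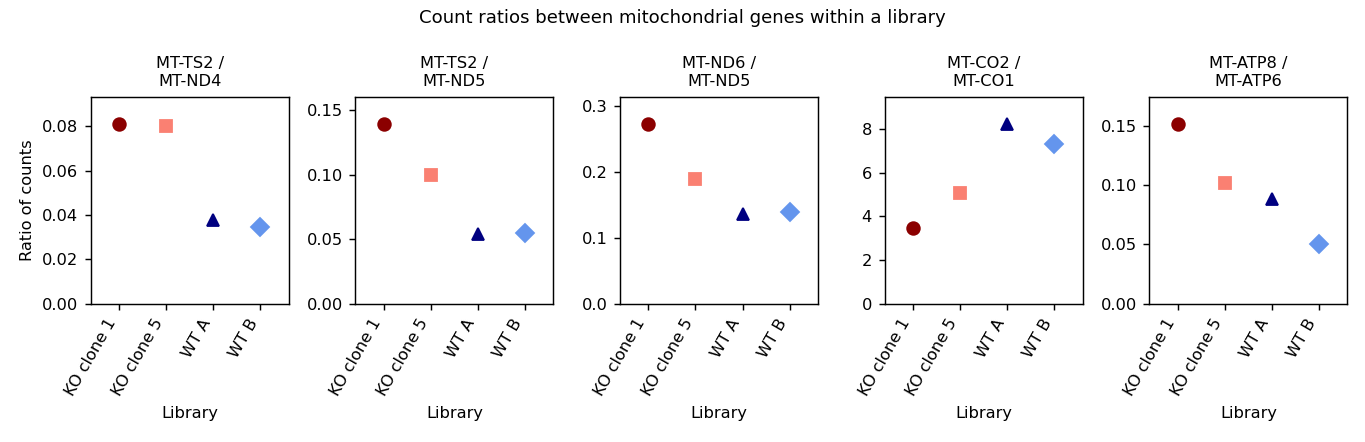
Ratios of counts between mitochondrial genes in each library, on linear axes from 0, for KO clones 1 and 5 and WT A and B. MT-TS2 over MT-ND4 is 0.0812 and 0.0801 in the KO clones, against 0.0376 and 0.0345 in WT, and MT-CO2 over MT-CO1 is 3.47 and 5.07 in the KO clones, against 8.24 and 7.29 in WT.

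The spread within each group was of similar size to many of these differences. Between the KO clones the 19 members differed by a median of 0.50 on the log2 scale, against 0.38 over all tested genes. Between WT A and WT B the median was 0.28, against 0.27 over all tested genes. The ratios over all genes had a small constant added to each CPM and those of the members did not, so these medians are not quite the same measure. The largest difference between the KO clones was in MT-ATP8, at 1.53, and that between the WT libraries was in MT-TF, at 2.0. MT-CYB, MT-ND4, MT-ND6, MT-TS2 and MT-TF were all 0.50 to 0.56 higher in KO clone 1 than in KO clone 5 on the log2 scale. Others went the other way, among them MT-TV and MT-CO2 at -0.79 each and MT-ND1 at -0.54. Each clone has 1 library, so these differences have no replicate check.

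Nuclear rows named as copies of mitochondrial genes took few reads. Of 405 such rows 38 had a count, and together they held 31 and 29 counts in KO clones 1 and 5, against 23 and 95 in WT A and B. The highest were MTATP6P1 with 28 counts over the 4 libraries, MTND2P28 with 20, MTRNR2L12 with 18 and MTND5P2 with 15, and 0 of the rows had enough counts to be tested.

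Among nuclear genes that maintain mitochondrial nucleic acids, 1 fell and 0 rose of 69 tested, against 0.609% lower and 1.58% higher of all genes tested. The 3 lists held 73 genes in all, and their tested members had a median log2 change of -0.17, against 0.0021 over all genes tested. At an unadjusted p under 0.05, 3 of the 69 were higher and 2 lower, against 10.7% and 5.66% of all genes, so neither share exceeded that of all genes. Both KO clones lay above both WT libraries in 14 of the 69 and below in 28, against 25% and 22.8% of all tested genes.

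The gene that fell was FASTKD2, a mitochondrial RNA-binding protein known to bind MT-RNR2 and MT-ND6 RNA. It had 0 counts in both KO clones, against 43 in WT A and 65 in WT B, which is at least 29.4-fold lower if the KO group is set at 3 counts in sum (edgeR adjusted p = 0.000335). In the list of RNA cleavage, stability and decay, 23 were tested, with 0 higher and 1 lower. TRMT10C, a subunit of the enzyme that cuts the 5′ ends of mitochondrial tRNAs, had 123 and 131 CPM in KO clones 1 and 5, against 224 and 170 CPM in WT A and B, a log2 change of -0.63 (SE 0.26, edgeR adjusted p = 0.253). MTRES1, listed under its older symbol, had 0.66 (SE 0.29) and PTCD1 0.89 (SE 0.46), and neither passed. Of the 23, 22 did not pass.

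Of 21 tested genes of transcription and nucleoid upkeep 0 passed. LIG3, the DNA ligase of mitochondria, had 463 and 289 counts in KO clones 1 and 5, against 112 and 263 in WT A and B, a log2 change of 1.39 (SE 0.35, edgeR adjusted p = 0.0551). With DESeq2 its adjusted p was 0.00964, and it also passed with RLE scaling in edgeR (0.0452). It did not pass with upper-quartile scaling, without a scaling factor, with mitochondrial genes left out of scaling or with limma-voom. With each library left out in turn, the log2 change of LIG3 ran from 0.85 to 1.77. The mitochondrial DNA helicase TWNK had 0.77 (SE 0.34, edgeR adjusted p = 0.281), the ribonuclease RNASEH1 0.58 (SE 0.31) and the transcription factor TFB2M -0.60 (SE 0.34). Of 27 tested genes of rRNA and tRNA modification and ribosome assembly 0 passed, and 12 lay above 0. The lowest p were those of YBEY at 0.59 (SE 0.28), TRMT61B at -0.76 (SE 0.38), QTRT1 at -0.64 (SE 0.32) and DDX28 at -0.47 (SE 0.32), with edgeR adjusted p from 0.310 to 0.491.

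Of 10 tested long noncoding RNAs, a list that includes nuclear-retained transcripts, 0 passed and 9 lay above 0, against 2.19% and 50.3% of all genes tested, with a median log2 change of 0.33 against 0.0021. OIP5-AS1 had 0.70 (SE 0.28), SNHG1 0.56 (SE 0.24), NORAD 0.60 (SE 0.31) and TUG1 0.59 (SE 0.43). In 4 of the 10 both KO clones lay above both WT libraries, against 25% of all genes, and their part in the mitochondrial values was not tested.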

How the data were processed

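Whole-number read counts per gene were deposited, not normalised, for 60662 genes in 4 libraries, per the file headers. The submitters' processing notes name hg38, minimap2, SAMtools, Subread, DESeq and DESeq2 1.22.2, without settings, annotation or use of strand. A deposited table of normalised signal has each library's counts over its own size factor, 0.934 and 1.09 for KO clones 1 and 5 and 0.938 and 1.54 for WT A and B. The authors' deposited table of comparisons lists log2 fold changes with errors, a Wald score, p-values and a mean signal for 6479 genes, 18 of them mitochondrial. There the score had the opposite sign to the log2 fold change in 6478 genes, and the fold change is KO over WT.

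KO was compared with WT in edgeR 4.0.16 (R 4.3.3) after filterByExpr (10 counts, 15 in total) and TMM scaling, by the quasi-likelihood test with robust fitting and Benjamini-Hochberg adjusted p over 10505 tested genes. The threshold was 0.05, the tests were two-sided, and each SE was derived as log2 change divided by the root of F. Simulated data were used to test the fit. Library depth was 3121759 to 5303199 counts, with a median of 44 to 76 counts per tested gene. All count columns were used (0 left out).

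The members are defined by their identifiers. Members and lists were chosen with earlier results of these data known. All members could be named, and of each list the 4 tested genes with the lowest p and any past the threshold, and of nuclear copies the 4 with the most counts. Other genes named, the markers of cell origin among them, only describe the samples. The list genes matched by an older symbol numbered 2. Alternatives were RLE, upper-quartile and no scaling, mitochondrial genes left out of scaling, scaling to mitochondrial mRNA counts, no filter, only genes averaging 50 counts or more, DESeq2 1.42.0, limma-voom (limma 3.58.1) and each library left out.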

Additional observations from a re-analysis of the deposited data

How the results depend on the processing

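No paired analysis was possible because the KO libraries are clones 1 and 5 and the WT columns carry no replicate number. MT-TS2 and MT-ND6 were the 2 members called in the main test, and their log2 fold changes stayed positive under every alternative, at 1.42 to 1.93 and 1.01 to 1.56. The number of members called higher was 0 without any scaling factor, 4 when scaled to mitochondrial mRNA counts, 4 without a count filter and 0 to 5 with a library left out, and the number called lower was 0 to 1 with a library left out. Without scaling, 11 of 19 members had an unadjusted p under 0.05 in edgeR. DESeq2 and limma-voom each called the same 2 members as the main test. Both were run only with scaling, so they do not show what they would call without it. Without WT A edgeR called 0 members, and 4 had an unadjusted p under 0.05. Leaving out KO clone 5 leaves a single KO library. The log2 fold changes were then 1.93 in MT-TS2, 1.56 in MT-ND6 and 1.85 in MT-ATP8. They were 0.76 in MT-ND4, 0.85 in MT-CYB and -1.17 in MT-CO2. Calls over all genes also moved when a library was left out.

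Over all genes, 166 were higher and 64 lower. The number higher was 20 without scaling, 357 scaled to mitochondrial mRNA counts, 385 without a filter, 71 among genes averaging 50 counts or more and 91 to 674 with a library left out. The number lower was 11, 171, 183 and 12 under the same 4 settings, 24 with DESeq2, 41 with limma-voom and 42 to 361 with a library left out. No scaling moved the median of all genes by more than 0.070 on the log2 scale. Of the nuclear genes of mitochondrial upkeep, 1 was called higher with RLE scaling, with scaling to mitochondrial mRNA counts, without a filter and with DESeq2, and 0 to 2 with a library left out. The number lower was 0 among genes averaging 50 counts or more, where FASTKD2 was not tested, 0 with DESeq2, which gave it no adjusted p, and 1 to 4 with a library left out.

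Direction changed with certain single libraries left out in members that were not called. The log2 fold change ran from -0.19 to 1.18 in MT-TV, -0.14 to 0.43 in MT-ND1, -0.14 to 0.38 in MT-ND2, -0.012 to 0.23 in MT-CO1, -0.33 to 0.63 in MT-ATP6, -0.14 to 0.44 in MT-CO3 and -0.34 to 0.26 in MT-ND3, and from -0.28 to 1.16 in TUG1. The difference in mitochondrial share between KO and WT, 0.345 percentage points, ran from 0.0699 without KO clone 1 to 0.620 without KO clone 5 and was 0.0843 with the rRNAs left out. Members under 10 counts could not be compared at this depth. The cause of these changes was not tested.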
